A study of Mus musculus with 135 samples.

Results

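Genes that mark the projection neurons of the striatum were followed through bulk RNA-seq of mouse brain dissections: Drd1, Drd2, Ppp1r1b, Penk, Tac1, Adora2a, Rgs9, Gpr6 and Pde10a, 9 of the 55416 genes of the count tables. The set was defined by measured values as well as by name, since these genes were chosen by their level in counts-per-million of the reads on genes (CPM) in the libraries labelled cort, where they rose and fell together and where a few libraries stood far above the rest. Their levels and correlations in cort are therefore a description. Counts of called genes in cort come from the same libraries, so nothing is read from them. Those of the main comparisons are printed with the share of all genes called. The animals were adult male Townes mice carrying human haemoglobin genes, either sickle (SS, HbSS) or control (AA, HbAA). Mice named AA or SS alone had neither stress nor drug. RSD, repeat social defeat, was exposure to an aggressor mouse placed in the home cage on consecutive days, and minocycline, a tetracycline antibiotic, was given in the drinking water before and during RSD, or without RSD. The cort libraries used for tests came from 12 AA, 3 AA + RSD, 18 AA + RSD + minocycline and 1 AA + minocycline mice, and from 14 SS + RSD + minocycline, 4 SS + minocycline, 6 SS + RSD and 8 SS mice. The hip libraries held 11 AA and 7 SS mice and otherwise the same numbers. Libraries are named below by the mouse number in their labels.

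The striatum lies beneath the cortex, and nearly all of its neurons are GABAergic projection neurons that receive dopamine. Neurons of the direct pathway carry the dopamine receptor Drd1 and make substance P from Tac1, while neurons of the indirect pathway carry the dopamine receptor Drd2, the adenosine receptor Adora2a and the orphan receptor Gpr6 and make enkephalin from Penk. Both kinds share the phosphatase inhibitor Ppp1r1b, the G protein regulator Rgs9 and the cyclic nucleotide phosphodiesterase Pde10a. Cortex and hippocampus hold these transcripts at lower levels, in some of their own neurons.

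The 9 genes have these positions in GRCm39 and all are protein coding: Drd1 on chromosome 13 (ENSMUSG00000021478.7, 54204872-54209760), Drd2 on 9 (ENSMUSG00000032259.9, 49251654-49319477), Ppp1r1b on 11 (ENSMUSG00000061718.13, 98239169-98248624), Penk on 4 (ENSMUSG00000045573.10, 4132722-4141856), Tac1 on 6 (ENSMUSG00000061762.13, 7554120-7565834), Adora2a on 10 (ENSMUSG00000020178.7, 75152560-75170628), Rgs9 on 11 (ENSMUSG00000020599.14, 109116158-109189025), Gpr6 on 10 (ENSMUSG00000046922.8, 40945973-40948304) and Pde10a on 17 (ENSMUSG00000023868.18, 8744204-9205482). Of their exon bases, 28.6% in Ppp1r1b, 11.2% in Penk and 7.64% in Drd2 were shared with genes of the opposite strand, whose reads cannot be told apart unless strand was used in counting. The promoters of the receptor genes of the indirect pathway are shown because these genes varied most between cort libraries. Each is the 200 bases before the annotated start site, read on the gene's strand, with the motifs TGACGTCA (the cAMP response element), its core TGACG and GGGCGG (the GC box) in capitals where found on either strand.
Drd2 (chr9:49251454-49251653, + strand): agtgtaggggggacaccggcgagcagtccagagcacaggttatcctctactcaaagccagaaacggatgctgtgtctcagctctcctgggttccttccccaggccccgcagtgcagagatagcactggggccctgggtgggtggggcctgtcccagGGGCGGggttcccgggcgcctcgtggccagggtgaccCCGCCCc
Adora2a (chr10:75152360-75152559, + strand): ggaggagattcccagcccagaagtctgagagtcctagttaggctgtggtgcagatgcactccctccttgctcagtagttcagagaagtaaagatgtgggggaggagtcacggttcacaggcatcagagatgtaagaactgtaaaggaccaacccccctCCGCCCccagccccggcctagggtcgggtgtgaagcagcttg
Gpr6 (chr10:40948305-40948504, - strand): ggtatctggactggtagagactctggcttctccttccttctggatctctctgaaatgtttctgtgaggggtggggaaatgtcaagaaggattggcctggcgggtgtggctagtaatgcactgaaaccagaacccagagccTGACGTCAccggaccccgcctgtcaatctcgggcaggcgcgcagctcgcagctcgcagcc
The full cAMP response element occurred in 1 of the 9 promoters, that of Gpr6, with its first base at position -60 from the start site, against 1.59% of the 21757 promoters of protein-coding genes. The core was likewise present in 1 of 9, in Gpr6, against 15.99% of all promoters, and lies within the full element on both strands. GC boxes occurred in 4 of 9 against 34.8%, TATAAA in 2 of 9 against 9.57% and CCAAT in 2 of 9 against 32.3%. A match of letters is a description and not a measured binding site.

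Depth ranged from 16295042 to 107713193 reads on genes in cort (median 33574766) and from 12869149 to 68731008 in hip (median 34353343). The libraries of 2 mice held identical counts under different group labels in both tissues, and were left out of tests and counted once in descriptions, which leaves 67 cort and 65 hip libraries. Summed CPM of cortical glutamatergic genes overlapped between tissues, with 661 in a hip library of SS + RSD + minocycline and 441 in the cort library of mouse 5801. Hippocampal markers went with the tissue labels except in mouse 9674 (AA + RSD). Its cort library had 9 of 9 hippocampal genes at more than 4 times the cort median (summed CPM 438 against 38.2) and its hip library had a summed hippocampal CPM of 38.2 against a hip median of 463. Summed cortical glutamatergic CPM was 330 in its cort library and 953 in its hip library, against medians of 939 in cort and 358 in hip. Both sums of each library thus lay near the medians of the other tissue. The libraries were kept under their labels, and an exchange of labels was not tested. Calls between groups that include this mouse are given with and without it. The mouse numbers fall into 3 runs, here called series A, B and C, which the labels do not explain. All mice with RSD alone were of series A and all with RSD and minocycline of series B or C, so that no series holds both and a fit with the series as a term compares them through the unstressed groups. Mice with neither RSD nor minocycline were of series A and B, so RSD alone against these controls is also partly confounded with series.

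In the cort libraries all 9 genes were detected in every library, and the receptor genes of the indirect pathway had the widest ranges. Drd2 ran from 0.623 CPM through a median of 2.56 to 67.2 CPM, and Adora2a from 1.11 through 3.30 to 85.9 CPM. The highest library thus stood 26.3 times above the median for Drd2 and 25.996 times for Adora2a. Penk ran from 17.6 through 45.3 to 497 CPM, and Gpr6, a receptor with high constitutive activity, from 0.536 through 1.93 to 20.5 CPM. For these genes the highest library was 10.97 and 10.64 times the median. In the direct pathway, Drd1 ran from 5.65 through 9.32 to 74.6 CPM and Tac1 from 6.62 through 12.6 to 80.9 CPM. The genes shared by both pathways had high medians and narrower upper ranges, apart from Rgs9. Rgs9 ran from 9.47 through 18.2 to 158 CPM, Ppp1r1b from 34.4 through 84.2 to 482 CPM, and Pde10a from 19.3 through 84.3 to 378 CPM, where the highest library was 4.48 times the median. The lowest values rested on 12 reads for Gpr6, 13 for Drd2 and 27 for Adora2a, and on more than that for the other genes.

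**Figure D1:**
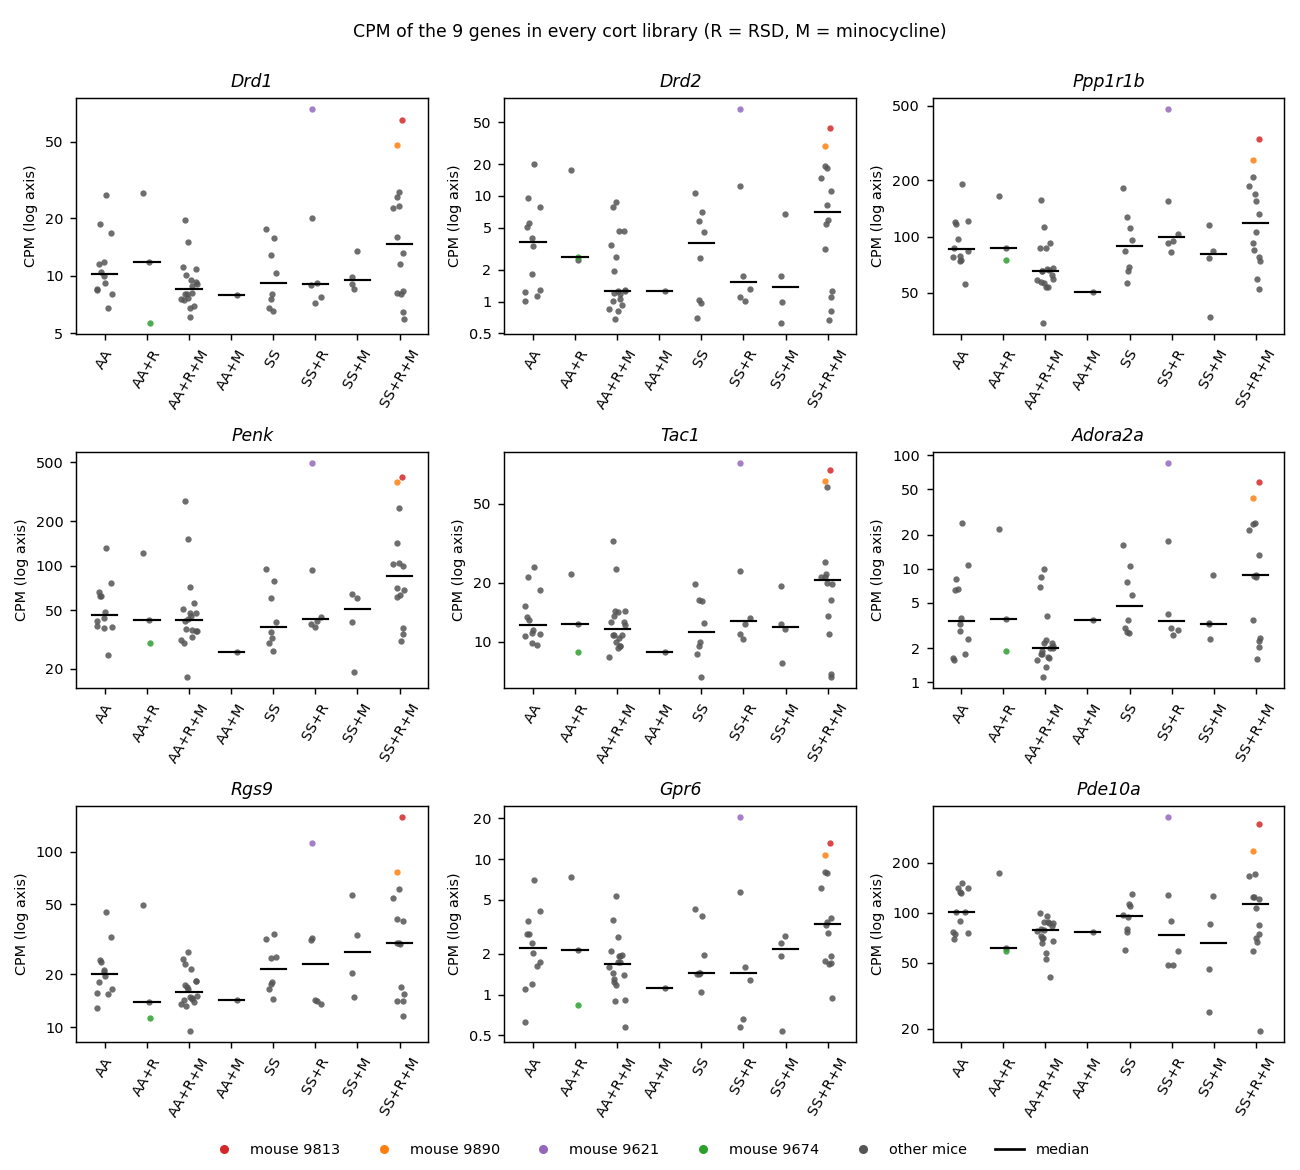
CPM of each of the 9 genes (log axis) in every cort library, by group, with R for RSD and M for minocycline; each point is 1 mouse and the bar is the group median. The libraries of mice 9621, 9813 and 9890 are at the top of every panel, and the remaining libraries of all groups overlap.

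Set on a per-length scale, as median CPM per kilobase of merged exon, the order in cort was Ppp1r1b (25.8), Penk (13.01), Pde10a (6.43), Rgs9 (2.79), Tac1 (2.74), Drd1 (2.05), Gpr6 (1.07), Drd2 (0.814) and Adora2a (0.628). In hip the first 6 genes kept this order, from Ppp1r1b at 13.5 to Drd1 at 1.10, and were followed by Drd2 (0.922), Gpr6 (0.449) and Adora2a (0.329). Rgs9 and Tac1, next to each other in cort, differed by less than the range of either gene over libraries. The receptors of the indirect pathway were the scarcest of the 9 transcripts in both dissections.

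A total of 3 cort libraries stood far above the rest, taken as those with at least 5 of the 9 genes at more than 4 times the cort median CPM. A score, the mean over the 9 genes of log2 CPM less the tissue median, summarises each library. Mouse 9621 (SS + RSD) had a score of 3.22, with all 9 genes past that level. Its cort library held 74.6 CPM of Drd1, 67.2 of Drd2, 482 of Ppp1r1b, 497 of Penk, 80.9 of Tac1, 85.9 of Adora2a, 113 of Rgs9, 20.5 of Gpr6 and 378 of Pde10a. Mouse 9813 (SS + RSD + minocycline) had a score of 2.81 with 8 genes past the level, among them Rgs9, which at 158 CPM was the highest of all libraries. It held 65.3 CPM of Drd1, 44.3 of Drd2, 330 of Ppp1r1b, 396 of Penk, 73.9 of Tac1, 58.5 of Adora2a, 13.2 of Gpr6 and 344 of Pde10a. Mouse 9890 (SS + RSD + minocycline) had a score of 2.47 with 7 genes past it. It held 48.01 CPM of Drd1, 29.8 of Drd2, 255 of Ppp1r1b, 369 of Penk, 65.7 of Tac1, 42.05 of Adora2a, 76.7 of Rgs9, 10.6 of Gpr6 and 234 of Pde10a. Genes of both pathways were high in all 3 libraries, and all 3 came from SS mice exposed to RSD, 1 without and 2 with minocycline. In bulk tissue, more cells of a type and more RNA per cell cannot be told apart.

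The threshold fell in a gap. Just inside it, mouse 9890 had 7 genes past 4 times the median, and just outside it mice 9895 and 9910 (both SS + RSD + minocycline) had 3 each, with scores of 1.73 and 1.56. Close to these were mouse 5844 (AA) at 1.72 and mouse 9646 (AA + RSD) at 1.66, each with 2 genes past the level. Below them the scores of the remaining libraries ran down to -0.93 in mouse 9851 (AA + RSD + minocycline). High cort libraries outside the 3 thus came from both genotypes and from mice with and without RSD. Taken gene by gene, 11 cort libraries had Drd2 and 10 had Adora2a past 4 times the median, against 1 for Ppp1r1b and 2 for Pde10a.

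The hip libraries of the same mice were not high. Mouse 9621 had a hip score of -0.02, mouse 9813 one of -0.15 and mouse 9890 one of 0.20, which ranked 36, 54 and 8 among 65. No hip library had 5 genes past 4 times the hip median. The highest hip score was 1.31 in mouse 9674, followed by 0.61 in mouse 5648 (AA + RSD + minocycline). The hip library of mouse 9674 had cortical and hippocampal sums near the cort medians, and was the highest for 6 of the 9 genes. Over the 65 mice with both libraries, cort and hip scores had a Pearson r of 0.09 and a Spearman rho of 0.25. Pearson r was 0.23 without mouse 9674, 0.17 without the 2 mice farthest from the median cort score, -0.28 within the 14 mice of series A and 0.11 within the 43 of series B.

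**Figure D2:**
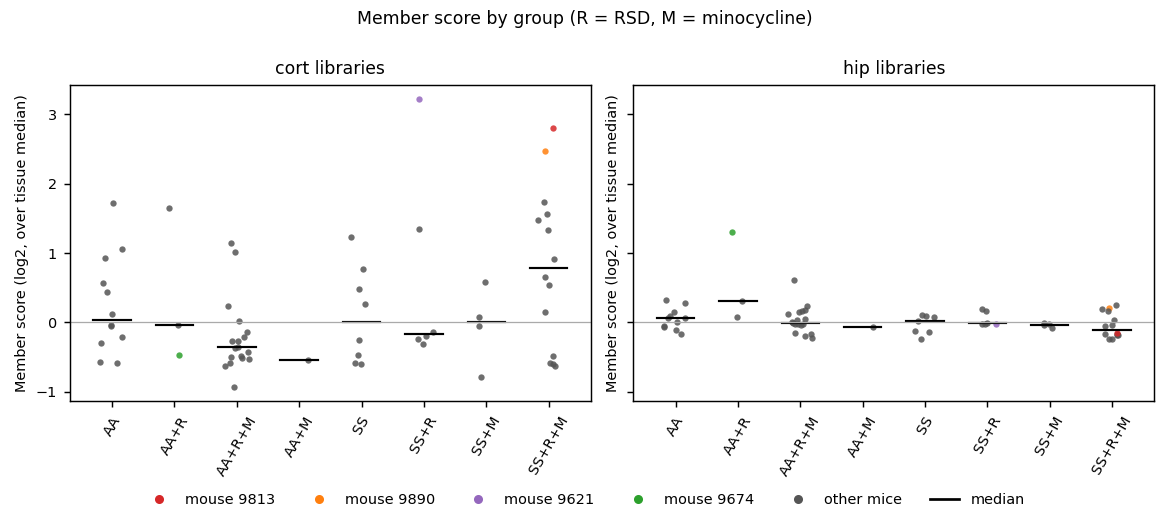
Score of the 9 genes (mean log2 CPM less the tissue median) in every cort library (left) and hip library (right) by group, with R for RSD and M for minocycline; points are mice and bars are medians. In cort the 3 highest points are mice 9621, 9813 and 9890 at 3.22, 2.81 and 2.47, whereas in hip the highest is mouse 9674 at 1.31.

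Markers of other regions were read in the same libraries, from lists that do not hold the 9 genes. The other striatal genes (19 of the 20 listed were in the tables) followed the score with r = 0.98 over 67 cort libraries, and 0.96 without the 3 highest. In those 3, 11, 11 and 9 of the 19 were past 4 times the median for mice 9621, 9813 and 9890. Adcy5, the main adenylyl cyclase of striatal projection neurons, was at 479, 424 and 311 CPM there against a cort median of 140.0. Cholinergic genes, which in the striatum mark interneurons and in the basal forebrain projection neurons, were past 4 times the median for 4 of 4 genes in each of the 3 libraries. Their summed CPM was 35.6, 34.6 and 27.4 against a median of 1.88. Chat, which makes acetylcholine, was at 9.11, 9.02 and 7.63 CPM against 0.514. The cholinergic list was as high in mouse 5801 (SS + RSD + minocycline), at a summed CPM of 38.7, where the score of the 9 genes was 1.33.

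Olfactory bulb markers were also raised in all 3 libraries, with 5 of 5 genes past 4 times the median. Their summed CPM was 141 in mouse 9621, 143 in mouse 9813 and 419 in mouse 9890, against a median of 12.7. Cdhr1, a cadherin of mitral and tufted cells, was at 106, 121 and 278 CPM against 10.5, and Eomes, a transcription factor of the same cells, at 11.5, 6.49 and 41.7 against 0.0376. Th, which makes the dopamine precursor in bulb interneurons and in midbrain neurons, was at 27.9, 14.5 and 84.2 CPM against 2.62, while Pitx3 and En1, which define midbrain dopamine neurons, were at most 0.0779 CPM in the 3 libraries. On the midbrain dopamine list, which also holds Th, 3 of 6 genes were past 4 times the median in each of the 3, with list scores of 1.59, 1.57 and 2.62 that ranked 3, 4 and 1 of 67. The order of the bulb markers was not that of the 9 genes. Mouse 9890 was lowest of the 3 for the score and highest for the bulb list, and mouse 5648 (AA + RSD + minocycline) had the second highest bulb sum in cort, 273, with a score of 1.02. In mice 9895, 5844, 9646 and 9910, next in score, the bulb list score lay between -0.55 and 0.56 and the bulb sum between 15.8 and 29.2 CPM, which ranked 7 and 8 of 67 in mice 5844 and 9910, while the striatal list score lay between 1.06 and 1.24.

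Genes of cortical glutamatergic neurons were low in the 3 libraries where the 9 genes were highest. Over all cort libraries their list score had r = -0.46 with the score of the 9 genes (rho = -0.22), and r = -0.10 without those 3. The lowest sums were 330 CPM in mouse 9674 (score of the 9 genes -0.47) and 441 CPM in mouse 5801 (1.33). The summed CPM of the 9 measured cortical genes was 528, 525 and 504 in mice 9621, 9813 and 9890 against a median of 939, which ranked 63, 64 and 65 of 67. Fezf2, which specifies subcerebral projection neurons, was at 9.23, 8.55 and 6.24 CPM against 44.6. Among interneuron genes, Pvalb was low (13.1, 8.94 and 10.3 CPM against 54.2) and Gad1, a GABA-making enzyme of striatal, bulb and cortical neurons alike, was high (592, 500 and 1155 CPM against 364). Of the 7 interneuron genes, 2, 3 and 2 were over their cort medians in the 3 libraries. The list scores were -0.28, -0.63 and -0.19, which ranked 61, 67 and 53 of 67. Hippocampal genes were near their median, with a summed CPM of 41.9, 40.9 and 42.8 against 38.2, and oligodendrocyte genes summed to 3851, 2919 and 4823 against 5446. The lists of hypothalamus and choroid plexus were above the cort median too, with scores of 1.00 to 2.05 and 0.68 to 1.19, and that of thalamus was between 0.24 and 0.36. In mice 9895, 5844, 9646 and 9910 the cortical list score was between 0.04 and 0.11, at the level of the other libraries.

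**Figure D3:**
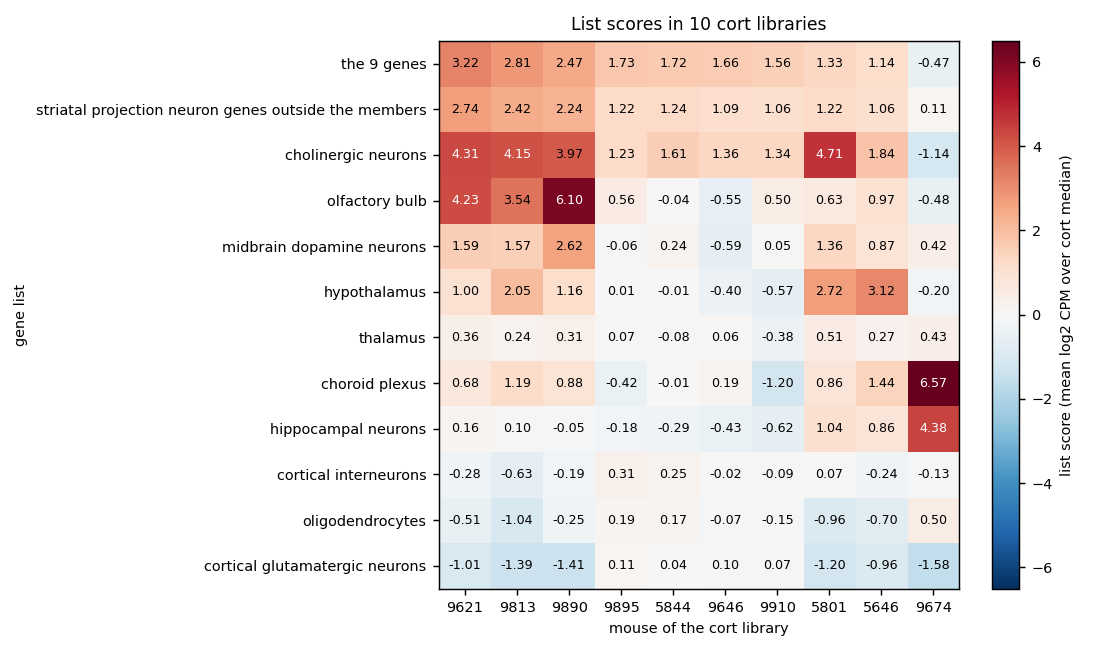
List scores (mean log2 CPM over the genes of a list less the cort median) of 12 marker lists, the 9 genes included, in 10 cort libraries named by mouse. Mice 9621, 9813 and 9890 are high for striatal, cholinergic and olfactory bulb genes and low for cortical glutamatergic genes, and mouse 9674 is high for choroid plexus (6.57) and hippocampal genes (4.38).

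Other mixtures of the 9 genes occurred below the top 3. In the cort library of mouse 5801, Penk (246 CPM) and Tac1 (60.9 CPM) were well above their medians of 45.3 and 12.6 CPM, whereas Pde10a was at 70.0 CPM, under its median of 84.3. Hypothalamic genes were high there (list score 2.72), with the neuropeptide Avp at 22.7 CPM against 0.0845 and Oxt at 4.25 CPM against 0.0690. Mouse 5646 (AA + RSD + minocycline) likewise had Penk at 272 CPM with Pde10a at 79.8 CPM, and the highest hypothalamic list score, 3.12. In mouse 5844 Adora2a was at 25.5, Drd2 at 20.01, Pde10a at 151 and Penk at 133 CPM, all above their medians. Penk and Pde10a thus did not move in a fixed proportion across these libraries.

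Over the 67 cort libraries the 36 pairs among the 9 genes had a median Pearson r of 0.84 (log2 CPM), from 0.41 to 0.94, with 34 of 36 above 0.5. The median Spearman rho was 0.77. Leaving out the 3 highest libraries gave a median r of 0.77 (0.09 to 0.92), centring on group means 0.83, series A alone 0.91 (15 libraries) and series B alone 0.83 (44 libraries). The correlation was closest between Drd2 and Adora2a (0.94), both of the indirect pathway, and nearly as close across pathways, between Drd1 and Adora2a (0.92). Penk and Tac1, the neuropeptide precursors of the opposite pathways, had an r of 0.91. Pde10a was the loosest member, at 0.41 with Tac1, 0.49 with Penk and 0.53 with Ppp1r1b. Since all points share the scaling of their library, and the genes were chosen by this pattern, no p is given.

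Pathway scores in cort rose and fell together. The direct score (Drd1, Tac1) and the indirect score (Drd2, Adora2a, Gpr6) had r = 0.89 over cort libraries. The indirect score varied more, with an SD of 1.33 against 0.76, but it leaves out Penk while the direct score holds Tac1. By gene, the SD of log2 CPM was 1.64 for Drd2, 1.43 for Adora2a, 1.09 for Gpr6 and 1.01 for Penk. It was 0.79 for Drd1 and 0.79 for Tac1. The indirect score exceeded the direct score most in mice 9910 (by 1.63), 9621 (1.45), 9895 (1.40) and 5844 (1.40), and fell furthest below it in mouse 9851 (-1.41).

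In hip, whose correlations the choice of the genes did not use, the same 36 pairs had a median r of 0.19, from -0.53 to 0.65, with 2 above 0.5 and 7 below 0. Without mouse 9674 the median was 0.05 and 16 pairs were below 0. The closest pairs were Ppp1r1b with Penk (0.65) and Drd1 with Gpr6 (0.60). Pde10a ran against Tac1 (-0.53) and Penk (-0.52), the pairs in which it was already loosest in cort. The median was 0.34 within series A (14 libraries) and 0.12 within series B (43 libraries). These too are descriptions over libraries that share their scaling.

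**Figure D4:**
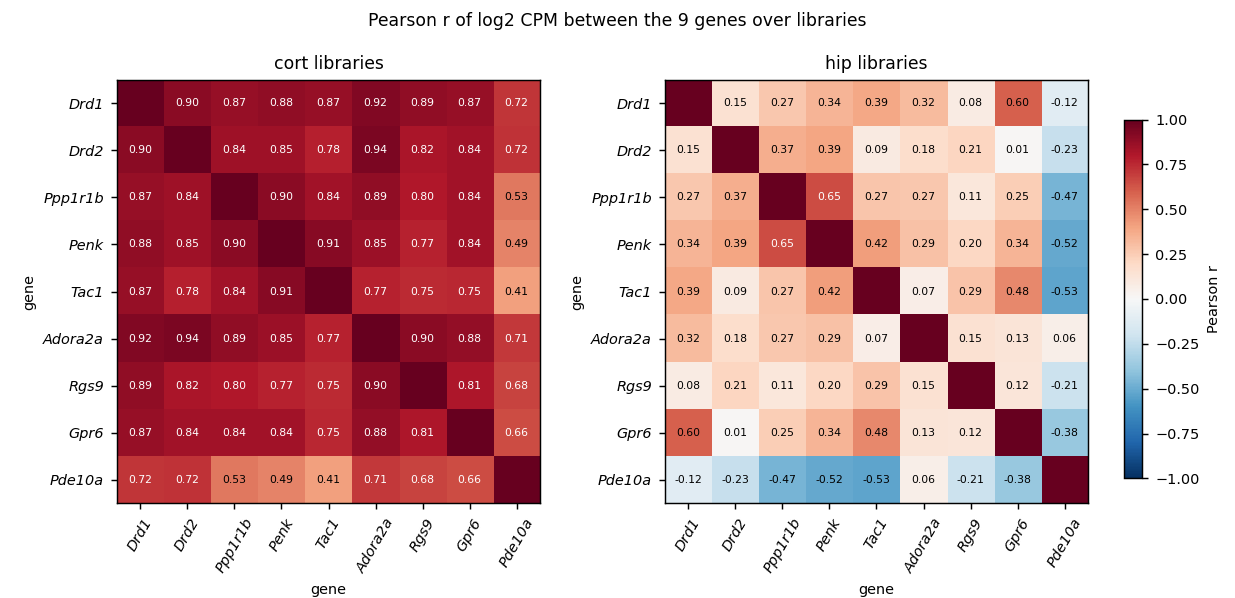
Pearson r of log2 CPM between each pair of the 9 genes over 67 cort libraries (left) and 65 hip libraries (right). Cort values run from 0.41 to 0.94 and are lowest for Pde10a, and hip values run from -0.53 to 0.65.

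Of 13385 other genes with sufficient level in cort, 12 had an r above 0.8 with the score and 207 one below -0.5. Those most alike included Syndig1l (0.97), Rarb (0.94), Rxrg (0.91), Pde1b (0.91), Adcy5 (0.90), Gng7 (0.89), Gnal (0.88), Lrrc10b (0.84) and Kcna5 (0.83). Of these, all but Kcna5, a potassium channel gene, were on the striatal or dopamine signalling lists used here. Syndig1l was at 64.3 CPM in mouse 9621 against a median of 3.52, and kept an r of 0.96 without the 3 highest libraries. In hip its r was 0.46, and those of the others named ranged from -0.20 (Gng7, Lrrc10b) to 0.44 (Rarb). The 5 most opposed in cort were Bglap3 (-0.74), Trpv6 (-0.71), Fezf2 (-0.70), Psrc1 (-0.67) and P2rx6 (-0.66). Without the 3 highest libraries their r was -0.54, -0.50, -0.45, -0.39 and -0.54 in the same order.

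The list of dopamine and cAMP signalling genes, 20 genes that include G protein subunits, cyclases, kinases and phosphodiesterases, followed the score with r = 0.88 over cort libraries. Its members differed. Gnal and Gng7, which encode the G protein subunits that couple dopamine receptors to Adcy5, and Pde1b had r of 0.88, 0.89 and 0.91. Widely used components had lower values, with r = 0.05 for Ppp3ca, 0.02 for Prkaca, 0.11 for Prkacb and 0.11 for Gnao1.

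Group comparisons used edgeR's quasi-likelihood test on all genes, with Benjamini-Hochberg adjustment, and a gene was called at an adjusted p under 0.05. The cort libraries tested are those in which the genes were chosen, and the SS arm of the first comparison holds mice 9813 and 9890, so its fold changes are given with SE and without p-values. In this comparison, of SS with AA mice that both had RSD and minocycline, 5 of the 9 genes were called higher in SS cort, where 0.606% of all 22926 genes were, a count from which nothing is read. Drd2 ran from 0.668 through a median of 7.09 to 44.3 CPM in SS + RSD + minocycline (14 libraries) and from 0.687 through 1.26 to 8.81 CPM in AA + RSD + minocycline (18 libraries). Adora2a ran from 1.62 through 8.76 to 58.5 CPM and from 1.11 through 2.0001 to 9.93 CPM. The SS group spanned nearly the whole range of the AA group and went beyond it, with 6 of 14 libraries above the highest AA library for each of these genes. The log2 fold change of Adora2a was 2.35 ± 0.48 (SE) and that of Drd2 was 2.19 ± 0.55.

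In the direct and the shared group the fold changes were smaller. That of Rgs9 was 1.28 ± 0.27, from a median of 15.8 to 30.3 CPM, with 9 of 14 SS libraries above the highest AA library. Drd1 had 1.09 ± 0.28, with medians of 8.52 and 14.6 CPM and highest values of 19.6 and 65.3 CPM. Ppp1r1b had 0.93 ± 0.23, with medians of 65.7 and 119 CPM. The groups overlapped for every gene. The log2 fold changes of the remaining genes were 1.01 for Tac1, 1.33 for Gpr6, 0.70 for Pde10a and 1.06 for Penk. All 9 fold changes were above 0, with a median of 1.09 on the log2 scale against 0.01 over all genes.

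The values rested in part on the highest libraries. Without mice 9621, 9813 and 9890 none of the 9 genes was called by edgeR (7 at an unadjusted p under 0.05, as were 1837 of 22789 genes), and the median fold change was 0.64. Leaving out mouse 9813 alone left 1 gene called and a median of 0.85, and leaving out mouse 9890 alone left 2 and 0.95. The shares of all genes called in these fits are not given here, so nothing is read from their counts. In the same comparison 4 of the 19 tested striatal genes outside the set were higher (among them Lrrc10b at 1.73, Gpr149 at 1.91 and Drd3 at 3.24 on the log2 scale), and 4 of 4 cholinergic genes were higher, with Chat at 2.50 and Lhx8 at 4.10. Without the 3 libraries the counts were 0 of 19 striatal and 3 of 4 cholinergic genes. No gene of the olfactory bulb list passed (0 of 5, median 0.72, which was -1.85 without the 3 libraries, with Eomes then lower), nor did any of the cortical glutamatergic, cortical interneuron, oligodendrocyte, hippocampal, thalamic, hypothalamic, midbrain or choroid plexus lists. Of the dopamine and cAMP signalling genes, 2 of 20 were higher, Rasgrp2 (0.61) and Drd3, which is also on the striatal list. Beyond these values, a fit with the score of other striatal genes as a term is given below. Its smaller fold changes follow from its construction, so the part of region markers in the difference was not tested.

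**Figure D5:**
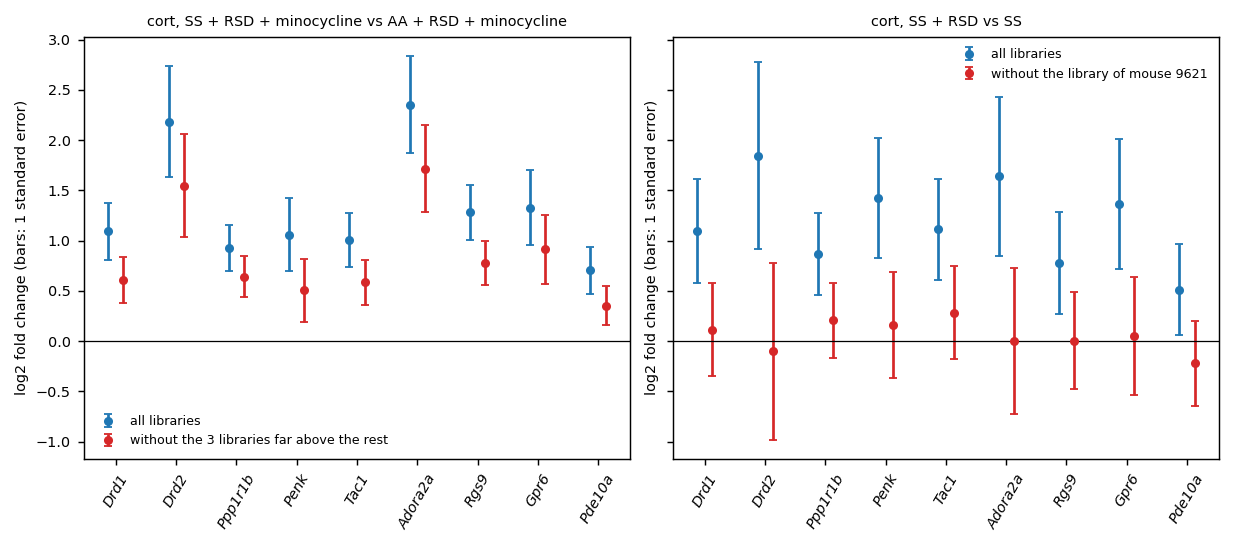
Log2 fold changes of the 9 genes with bars of 1 standard error (edgeR), for cort SS + RSD + minocycline vs AA + RSD + minocycline (left) and cort SS + RSD vs SS (right), with all libraries in blue and without the highest ones in red. On the left the fold changes are smaller without the 3 highest libraries, with medians of 1.09 and 0.64, and on the right they lie near 0 without mouse 9621, between -0.22 and 0.28.

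For RSD in SS mice, none of the 9 genes was called in cort by edgeR or DESeq2 (2.57% of 19906 genes were called by edgeR), and 6 had an unadjusted p under 0.05 against 27.7% of all genes. SS + RSD was all of series A and SS of series A and B, so RSD and series cannot be fully told apart in these shares. Adora2a was at 3.998, 17.7, 2.99, 2.89, 2.62 and 85.9 CPM in the 6 SS + RSD libraries, of which the last is mouse 9621. Drd2 was at 1.11, 12.5, 1.73, 1.31, 1.00 and 67.2 CPM in the same order. Mouse 9621 was thus alone at the top, mouse 5391 was the next, and the other 4 libraries lay at or below the SS medians of 4.70 CPM for Adora2a and 3.57 CPM for Drd2. The log2 fold changes ran from 0.51 for Pde10a to 1.84 ± 0.93 (SE) for Drd2, with a median of 1.11 against 0.08 over all genes. Without mouse 9621 they ran from -0.22 to 0.28 with a median of 0.05, and the number of genes called over the whole table went from 511 to 0. In SS + RSD + minocycline against SS + RSD no member was called (8.85% of genes), with a median of -0.16 that was 0.87 without mouse 9621.

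In the other cort comparisons none of the 9 genes was called. AA + RSD against AA (0.853% of genes called) rested on 3 stressed libraries, mice 9643, 9646 and 9674. Adora2a was at 3.61, 22.3 and 1.88 CPM in them, Drd1 at 11.8, 27.2 and 5.65, and Penk at 42.8, 122 and 29.8. Mouse 9646 was high for every gene and mouse 9674 lowest for 8 of 9, so that the median fold change of 0.20 was -0.78 without mouse 9646 and 0.54 without mouse 9674. In AA + RSD + minocycline against AA + RSD (3.6% called) the median was -0.63, with 4 of 9 at an unadjusted p under 0.05, as were 5325 of 21927 genes. It was 0.26 without mouse 9646, with 7 of 9 above 0, and -0.93 without mouse 9674, where the number of genes called over the whole table went from 789 to 0. In SS + minocycline against SS (0% called by edgeR, 1406 of 19906 genes at an unadjusted p under 0.05) the 4 treated libraries, mice 7108, 7121, 9888 and 9889, held 2.41, 8.88, 3.30 and 3.28 CPM of Adora2a and 0.991, 6.73, 0.623 and 1.74 CPM of Drd2. Mouse 7121 was the highest of the 4 and lay within the range of the SS group for both. SS against AA without stress or drug (0.214% called) gave a median of -0.20.

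In hip the 9 genes had calls by edgeR, with all libraries in the fit, in the comparisons that include mouse 9674. In AA + RSD against AA, 2 of 9 genes were higher, against 1.05% of 21563 genes. Adora2a was at 1.49, 2.18 and 9.90 CPM in mice 9643, 9646 and 9674, and from 1.18 through 1.59 to 2.11 CPM in the 11 AA libraries. Drd1 was at 5.79, 7.62 and 11.5 CPM, and from 3.63 through 5.01 to 7.02 CPM in AA. The fold changes were 1.51 ± 0.30 for Adora2a (adjusted p = 0.0074, edgeR) and 0.77 ± 0.16 for Drd1 (adjusted p = 0.0093, edgeR). Without mouse 9674, whose hip library had cortical genes at a summed CPM of 953 against a hip median of 358, none was called and the values were 0.12 and 0.41. The same genes were lower in AA + RSD + minocycline than in AA + RSD (1.99% of genes lower), Adora2a by -1.56 ± 0.28 (adjusted p = 0.0012, edgeR) and Drd1 by -0.73 ± 0.15 (adjusted p = 0.0050, edgeR), and neither was called without mouse 9674. Both comparisons share the 3 AA + RSD libraries. The effect of RSD in SS less that in AA was -1.67 ± 0.34 for Adora2a (adjusted p = 0.029, edgeR), the only member called (0.0431% of genes lower), and was -0.28 and not called without that mouse.

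No member was called in the other hip comparisons: SS + RSD against SS (3.11% of genes called), SS + RSD + minocycline against SS + RSD (5.96%), SS + minocycline against SS (0% called by edgeR, 449 genes of 20701 at an unadjusted p under 0.05), SS against AA (0.159%) and SS + RSD + minocycline against AA + RSD + minocycline (2.74%). DESeq2 called 1 member in SS + RSD + minocycline against SS + RSD, where its share of all genes is not given here, so nothing is read from it. Adora2a was at 2.17 to 2.82 CPM (median 2.34) in the 7 hip libraries of SS mice. In the 11 of AA mice it was at 1.18 to 2.11 CPM (median 1.59), so that these groups did not overlap. The log2 fold change was 0.50 ± 0.20 (adjusted p = 0.99, edgeR). The share of all genes apart in this way was not computed, so nothing is read from the gap. With RSD and minocycline the Adora2a medians were 1.73 CPM in SS and 1.52 in AA, with 0 of 14 SS libraries above the highest AA library. In SS + RSD + minocycline against AA + RSD + minocycline, Drd1 in hip was at 2.88 to 5.98 CPM (median 4.52) in SS + RSD + minocycline and 3.95 to 6.22 CPM (median 5.13) in AA + RSD + minocycline, with a log2 fold change of -0.16 ± 0.10. The hip fold changes of the 9 genes had a median of -0.16. The difference of that comparison between tissues, cort less hip, had a median of 1.34, with Adora2a at 2.12 ± 0.48. It uses the cort values by which the genes were chosen, so nothing is read from its counts. None of the 9 passed the adjustment (0% of 18858 genes did, edgeR), and all 9 had an unadjusted p under 0.05, as did 5.29% of genes. With mouse as a block the median was 0.95, and without the 3 highest cort libraries the median was 0.83.

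Cort and hip of mice with neither RSD nor minocycline were compared last, over 20 cort and 18 hip libraries. The genes were chosen by their cort levels, so these values are a description and nothing is read from the count. By edgeR, 7 of 9 genes were called higher in cort, where 22.2% of 19255 genes were. Adora2a differed by 1.73 ± 0.30 on the log2 scale, Gpr6 by 1.55, Drd1 by 1.32 ± 0.16, Penk by 1.08, Tac1 by 1.06, Ppp1r1b by 1.04 Rgs9 by 0.60, Drd2 by 0.54 ± 0.36 and Pde10a by 0.23. With the mouse as a block, since 18 animals gave both libraries, 8 of 9 were called. The share of all genes called in that fit is not given here, so nothing is read from its count. None of the 3 far-above libraries is in this comparison.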

How the data were processed

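Polyadenylated RNA of cort and hip dissections was sequenced with a directional, single-end kit. Per the labels, the authors aligned reads to GRCm39 with STAR and counted reads per gene on the GENCODE annotation while mapping; the release and the strand setting are not given in the sources used here. The deposited values are raw counts per gene, 1 table per tissue. The members and all gene lists were chosen with earlier results of these data known.

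CPM scales the counts of a library by its reads on genes, and correlations used log2 CPM with TMM scaling and a prior count of 2. Genes were tested with edgeR 4.0.16 (quasi-likelihood, TMM, filterByExpr with a minimum count of 10, R 4.3.3), in a model of all groups of a genotype, or of all groups for comparisons between genotypes, with Benjamini-Hochberg adjustment over all genes and a threshold of 0.05. DESeq2 1.42.0 was an alternative. The fits were tested on simulated data. Each library of a tissue is 1 mouse. Tables were scaled separately except in comparisons of cort with hip. A pair of mice with identical libraries, 1 sample whose title and tissue label differ, and 3 columns that match no labelled sample (1 cort, 2 hip) were left out. Positions, lengths and promoters come from GENCODE vM39 on GRCm39. Beyond the 9 genes, those named are the 10 most and 5 least alike in cort by Pearson r with the score, among genes whose log2 CPM averaged 1 or more, and list genes. Some genes that this rule would name are not reported here. Reads per library set counting error only.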

Additional observations from a re-analysis of the deposited data

Results flagged for a closer look

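Each gene of the set was tested within groups of 4 to 10 libraries: SS, SS + RSD and SS + minocycline, in cort and in hip. Groups outside that size, SS + RSD + minocycline among them, were not tested. Among these 54 pairs of a gene and a group, 3 had a library whose gap to the nearest other exceeded Dixon's 95% critical value. Separate tests would give about 1 in 20, or 2.7, by chance. The genes of a group share its libraries, so these tests are not separate and nothing is read from the count. Penk was at 497.4 CPM and Ppp1r1b at 481.5 CPM in the cort library of mouse 9621 (SS + RSD), each far above the other 5 of its group. This library is one of those by which the genes were chosen, so these gaps follow from the choice. Adora2a was at 2.82 CPM in the hip library of mouse 5349, the highest of 7 SS libraries.

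The effect of RSD on Adora2a in hip differed between genotypes by a test of the difference itself, with a log2 value of -1.67 in SS less AA (adjusted p = 0.029, edgeR). It was -0.28 without mouse 9674, whose hip library had cortical and hippocampal marker sums near the cort medians.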

How the results depend on the processing

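The number of the 9 genes called changed as follows. The shares of all genes called under these alternatives are not given here, so nothing is read from the counts. In cort SS + RSD + minocycline vs AA + RSD + minocycline (5 called), it was 3 with the series of the mouse numbers as a term, 0 with the score of other striatal genes as a term, 8 with the share of reads outside genes as a term, 0 without the 3 far-above libraries, and 1 to 2 without mouse 9813 or 9890 in turn. In hip AA + RSD vs AA (2 called) it was 0 within series A, 1 with the series as a term, 0 with only the groups compared, 1 with the striatal score as a term, and 0 to 3 leaving out 1 AA + RSD mouse. In hip AA + RSD + minocycline vs AA + RSD (2 called) it was 1 with the series and 1 with the striatal score as a term, and 0 to 3 leaving out 1 mouse. The call for RSD in SS less AA in hip became 0 without mouse 9674. Within series B 2 genes were called in SS + minocycline vs SS in cort and 2 in hip, where 0 were called otherwise. The treated mice of that fit were 9888 and 9889 alone. In hip SS + RSD + minocycline vs SS + RSD, DESeq2 and the fit of only the groups compared each called 1. The cort to hip correlation of scores was -0.28 within series A.

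The sign turned for some genes. With the striatal score as a term, Drd1 in cort SS + RSD + minocycline vs AA + RSD + minocycline was -0.0045, and in cort SS + RSD vs SS Drd2 was -0.37, Adora2a -0.093, Gpr6 -0.050 and Pde10a -0.23. In cort SS + RSD vs SS, leaving out 1 SS + RSD mouse at a time gave -0.099 to 2.02 for Drd2 and -0.22 to 0.62 for Pde10a, with the lowest values without mouse 9621. Without all far-above libraries Drd2 was -0.10, Adora2a -0.0014 and Pde10a -0.22. The striatal list followed the score of the 9 genes with r = 0.98 over cort libraries, so smaller fold changes with that term follow from its construction. Other causes were not tested. Of the other values under alternatives, 186 counts or summaries were equal to the main value or within a set bound of it. For single genes, 282 fold changes kept both their sign and whether the gene was called. The block by mouse, which pairs the cort and hip libraries of 1 animal, gave 8 calls in place of 7 for cort vs hip and changed no other count. The terms for the striatal score and leaving out mice 9813 and 9890 in turn were chosen after seeing the data. Reads limit the lowest genes, with 10 reads for Gpr6 in the lowest hip library.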

Other observations

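In the hip library of mouse 5648 (AA + RSD + minocycline) Rgs9 was at 51.1 CPM against a median of 14.7, the highest of all, and Penk and Tac1 were second highest at 46.7 and 13.01 CPM. Drd2 was at 8.86 CPM in that of mouse 9644 (AA) against 2.90. In the hip library of mouse 9644 the other striatal genes (list score 0.86) and cholinergic genes (summed CPM 5.69) also had the highest values of all hip libraries. The cort library of mouse 9812 (SS + RSD + minocycline) had cholinergic genes at a summed CPM of 22.1 with a score of the 9 genes of 0.65 and a bulb sum of 15.3.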
